A study of Mus musculus with 3 samples.

Results

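Complement genes were followed through 3 RNA sequencing libraries of mouse keratinocytes, the epithelial cells of the epidermis. The 7 genes C3, C1s1, C1ra, Cfb, Cd55, Cd59a and Serping1 were chosen from the complement system by name, with their values in these libraries already known, out of 41214 gene identifiers. The libraries carried the genotype labels ARPC4 ko (1 library), Nrf2-EGFP (1 library) and wt (1 library). ARPC4 belongs to the Arp2/3 complex, the nucleator of branched actin networks, and Nrf2 is the transcription factor of the antioxidant response, here named together with the fluorescent protein EGFP. All 3 cultures were C57BL/6 cells immortalised with SV40 and were growing exponentially without treatment. The sample names add the words Cre for the ARPC4 ko library and High for the Nrf2-EGFP library, without saying what they stand for. Whether a culture was a single clone, how the gene was deleted and which promoter drove the Nrf2 fusion are unknown here. With 1 library per label, no difference below has a replicate check and no test between genotypes was made.

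Complement is a cascade of secreted proteases and binding proteins that tags and lyses microbes and damaged cells. C1q recognises a target, C1r then activates C1s, and C1s cleaves C4 and C2. All routes meet at C3, whose cleavage is amplified by factor B in the alternative pathway. Host cells limit the cascade with membrane proteins such as CD55, which breaks up the C3-cleaving enzymes, and CD59, which blocks the lytic pore, and plasma holds soluble inhibitors such as C1 inhibitor. The liver makes most circulating complement, while epithelial cells, keratinocytes included, can make C3 and factor B locally.

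The sequences just before the transcription starts of C3, C1s1 and C1ra are shown because these were the 3 genes with large differences between libraries. They are the 250 bases before the start in RefSeq, on GRCm38.p6, 5′ to 3′ on the strand of the gene, and capitals mark the letters TTGCNNAA, the core bound by C/EBP factors, on either strand. They lie on the minus strand at chr17:57228137-57228386 for C3, on the minus strand at chr6:124542360-124542609 for C1s1 (the outer of its annotated starts) and on the plus strand at chr6:124512371-124512620 for C1ra, whose RefSeq start lies inside the GENCODE gene.
C3: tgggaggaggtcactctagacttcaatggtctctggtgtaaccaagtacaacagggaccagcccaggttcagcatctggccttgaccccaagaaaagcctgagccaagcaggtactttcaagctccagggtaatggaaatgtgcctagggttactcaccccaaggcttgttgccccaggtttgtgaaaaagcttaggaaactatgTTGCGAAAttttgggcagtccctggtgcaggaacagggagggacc
C1s1: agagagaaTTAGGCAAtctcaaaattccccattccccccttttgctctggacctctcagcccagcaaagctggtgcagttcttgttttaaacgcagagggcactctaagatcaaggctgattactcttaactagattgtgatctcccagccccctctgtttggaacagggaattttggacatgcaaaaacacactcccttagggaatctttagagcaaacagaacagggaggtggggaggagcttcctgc
C1ra: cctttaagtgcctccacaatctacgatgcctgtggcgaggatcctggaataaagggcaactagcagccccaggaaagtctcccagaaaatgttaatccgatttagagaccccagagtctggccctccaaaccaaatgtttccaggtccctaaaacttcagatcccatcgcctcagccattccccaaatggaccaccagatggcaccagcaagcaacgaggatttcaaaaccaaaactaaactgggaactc

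Of the 7 genes, 5 (C3, C1s1, C1ra, Cd55 and Cd59a) matched an entry of the RefSeq promoter table. The match in C3, TTGCGAAA, begins 45 bases before the start, and the match in C1s1, TTAGGCAA, begins 242 bases before it and is on the opposite strand. The window before the other annotated start of C1s1, at chr6:124542322-124542571, does not hold these letters, so the match depends on the start used. The same letters occurred in 9.56% of the 32851 promoter windows of this length in the table. Searches on both strands were also made for GGGANTTNC (NF-kB, in 3.54% of windows), TTCNNNGAA (STAT, in 7.02%), GAAANNGAA (interferon response, in 7.13%) and TGACNNNGC (antioxidant response, in 10.2%). The STAT and interferon letters can share bases. Among the 5 genes these gave a single match, GAAAGGGAA in Cd59a, which begins 187 bases before its start. A match is a description of letters and not a binding site, and an absent match says only that these letters are not in the window.

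The libraries held 23033863 (ARPC4 ko), 25723959 (Nrf2-EGFP) and 22924294 (wt) gene counts. Values below are CPM, which are counts per 1000000 of the TMM-scaled library size, and ranges in parentheses are exact 95% intervals that cover counting error only. Arpc4 was at 61.0 CPM in ARPC4 ko and at 98.4 CPM in Nrf2-EGFP, against 94.2 CPM in wt, and Nfe2l2, which encodes Nrf2, was at 179.5 and 166.4 CPM, against 224.7 CPM in wt. Arpc4 was 1.54-fold lower (1.44 to 1.65) in ARPC4 ko than in wt and so still well detected, the labels do not state which part of the gene was deleted, and Nfe2l2 was not higher in Nrf2-EGFP, so the names ARPC4 ko and Nrf2-EGFP mean the libraries labelled so throughout. All 8 keratinocyte markers examined, among them Krt5, Krt14 and Trp63, passed the filter of 1 CPM. Their sum was 14410 CPM in ARPC4 ko and 19014 CPM in Nrf2-EGFP, against 23978 CPM in wt, with Krt5 at 4260 and 6248 CPM, against 8997 CPM in wt. Krt14 was at 3249 and 4932 CPM, against 7378 CPM in wt. Not all markers were lower, and Trp63 was at 353.3 and 366.2 CPM, against 298.7 CPM in wt. Of the 8 markers, 25% had a log2 fold above 0 in ARPC4 ko over wt and 50% did in Nrf2-EGFP over wt. Over all genes compared these shares were 48.5% and 50.5%. The size rule described below called 2 of the 8, Krt5 and Krt14, lower in ARPC4 ko over wt, where 2.06% of all genes compared were. In Nrf2-EGFP over wt it called 0 of the 8 lower, where 2.05% of all genes compared were.

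Transcripts of C3 and of the C1 proteases were far more abundant in the ARPC4 ko and Nrf2-EGFP libraries than in wt. In bulk RNA, more cells with a transcript cannot be told apart from more of it per cell. C3 (ENSMUSG00000024164, chromosome 17, 57203970 to 57228136, GRCm38) had 6795 counts in ARPC4 ko and 3517 in Nrf2-EGFP, against 481 in wt. These counts correspond to 279.5 CPM (272.9 to 286.2) in ARPC4 ko and 141.5 CPM (136.9 to 146.3) in Nrf2-EGFP, against 21.4 CPM (19.5 to 23.4) in wt. C3 was thus highest in ARPC4 ko, intermediate in Nrf2-EGFP and lowest in wt, and no interval overlapped another. Its ratio was 13.1 (11.9 to 14.4) for ARPC4 ko over wt and 6.62 (6.01 to 7.29) for Nrf2-EGFP over wt. The 42 merged exons of C3 in GENCODE M21 share no base with another annotated gene, and none of its 65-base stretches, the length of the reads, occurs in a transcript of another gene.

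C1s1 (ENSMUSG00000038521, chromosome 6, 124530345 to 124542359), which encodes the C1s protease, had 251 counts in ARPC4 ko and 176 in Nrf2-EGFP, against 9 in wt. Its level was 10.3 CPM (9.09 to 11.7) in ARPC4 ko and 7.08 CPM (6.08 to 8.21) in Nrf2-EGFP, against 0.400 CPM (0.183 to 0.760) in wt. The ratios were 25.8 (13.4 to 57.1) for ARPC4 ko over wt and 17.7 (9.11 to 39.3) for Nrf2-EGFP over wt, with wide intervals because wt held so few counts. C1ra (ENSMUSG00000055172, chromosome 6, 124512405 to 124523443), which encodes the protease that activates C1s and is a neighbour of C1s1, had 95 counts in ARPC4 ko and 83 in Nrf2-EGFP, against 8 in wt. This was 3.91 CPM (3.16 to 4.78) in ARPC4 ko and 3.34 CPM (2.66 to 4.14) in Nrf2-EGFP, against 0.356 CPM (0.154 to 0.701) in wt. Its ratios were 10.98 (5.35 to 26.2) and 9.39 (4.55 to 22.5). For both proteases the intervals of the ARPC4 ko and Nrf2-EGFP libraries lay above that of wt, and for C1ra the intervals of the ARPC4 ko and Nrf2-EGFP libraries overlapped each other.

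**Figure D1:**
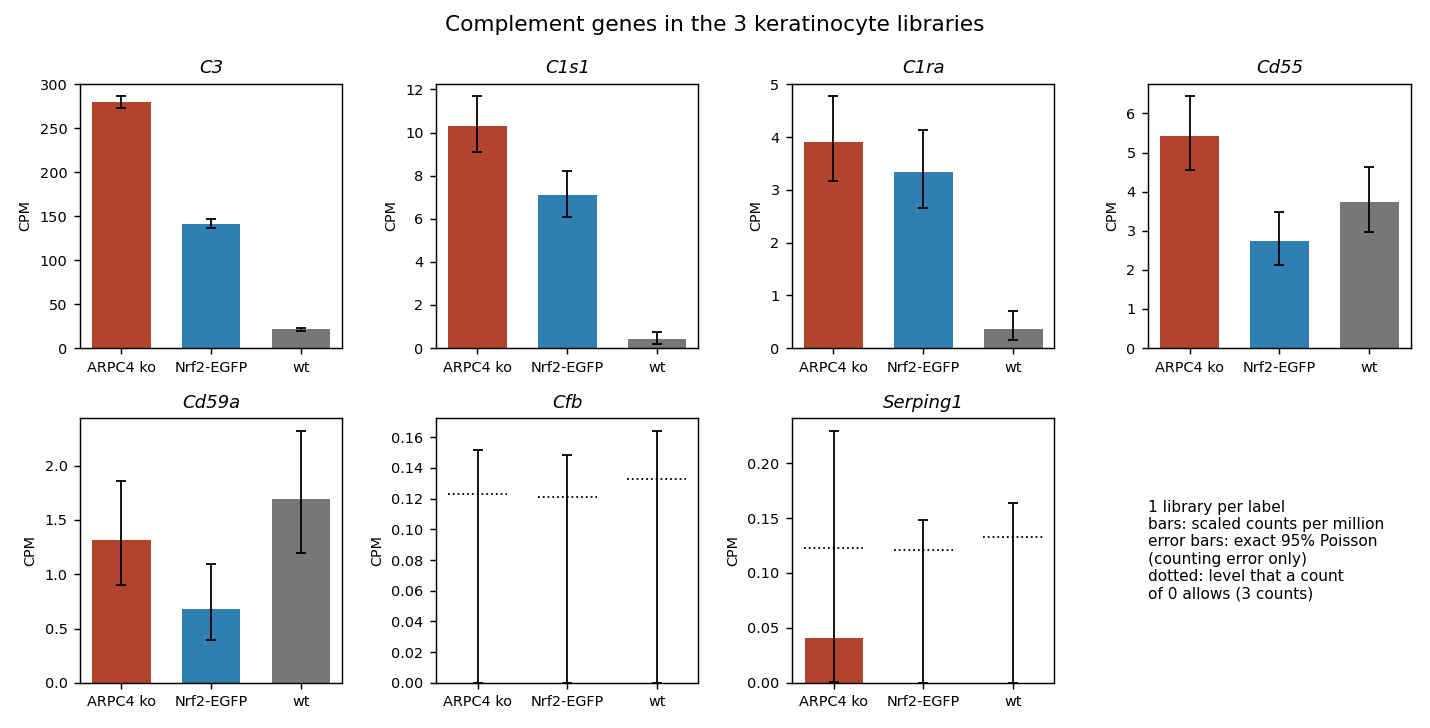
Level of each of the 7 complement genes in CPM (bars, each panel with its own axis from 0) in the libraries labelled ARPC4 ko, Nrf2-EGFP and wt, with exact 95% Poisson intervals and, for Cfb and Serping1, dotted lines at the level that a count of 0 allows. C3, C1s1 and C1ra stand at 279.5, 10.3 and 3.91 CPM in ARPC4 ko, against 21.4, 0.400 and 0.356 CPM in wt, while Cfb has no counts in any library.

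Genes were called by a size rule that asked for a log2 fold of CPM + 0.5 of at least 1 in either direction and an interval of the ratio that excludes 1. C3, C1s1 and C1ra passed as higher in ARPC4 ko over wt, where 4.70% of the 11865 genes compared did so, and in Nrf2-EGFP over wt, where 3.57% did. These genes were chosen with those contrasts known, so the counts are a description. Their log2 folds in ARPC4 ko over wt were 3.68 (C3), 3.59 (C1s1) and 2.36 (C1ra), which placed C3 at rank 6, C1s1 at rank 8 and C1ra at rank 42 from the top of all genes compared. In Nrf2-EGFP over wt the log2 folds were 2.70 (C3), 3.07 (C1s1) and 2.17 (C1ra), at ranks 12, 9 and 45. Both comparisons use the same wt library, so its low counts enter each of them. In wt C1s1 (0.400 CPM) and C1ra (0.356 CPM) were under the filter of 1 CPM, which they passed only through the other libraries. These wt levels are also under the added 0.5 CPM, so their log2 folds and ranks depend on that pseudocount. With 0.1 CPM, C1s1 was at 4.38 and C3 at 3.70 in ARPC4 ko over wt. The ranks, like the counts, are a description of genes chosen with these values known.

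**Figure D2:**
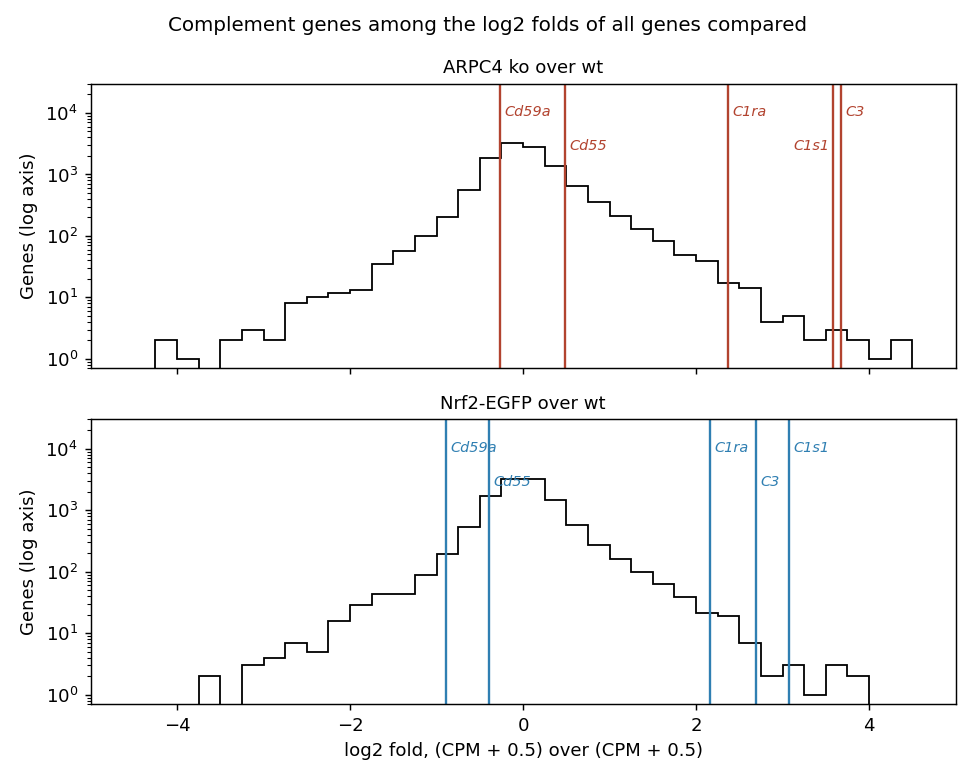
Distribution of the log2 fold of (CPM + 0.5) over the 11865 genes compared (line, number of genes per bin of 0.25 on a log axis) for ARPC4 ko over wt (top) and Nrf2-EGFP over wt (bottom), with vertical lines at the 5 complement genes past the filter. C3, C1s1 and C1ra lie in the upper tail of both panels, between 2.17 and 3.68, whereas Cd55 and Cd59a lie between -0.89 and 0.49.

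The library labelled ARPC4 ko was also compared directly with that labelled Nrf2-EGFP. C3 was 1.97-fold higher (1.90 to 2.06) in ARPC4 ko, with a log2 fold of 0.98, and C1s1 was 1.46-fold higher (1.197 to 1.78). C1ra had a ratio of 1.17 (0.862 to 1.59), an interval that includes 1. The size rule called none of the 7 genes in this comparison, in which 2.01% of all genes compared passed as higher and 0.961% as lower. With scaling by total counts, C3 had a log2 fold of 1.11 and passed.

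Factor B had no counts to compare. Cfb (ENSMUSG00000090231, chromosome 17, 34856374 to 34862518), the serine protease of the alternative pathway, was listed with 0 counts in all 3 libraries. With 3 counts as the upper limit for a gene listed at 0, this allows up to 0.123 CPM (ARPC4 ko), 0.121 CPM (Nrf2-EGFP) and 0.133 CPM (wt). In GENCODE M21, 79.5% of its exon bases are also exon bases of Gm20547, a gene on the same strand that joins C2 and Cfb, and 71.1% of its 65-base stretches occur in another gene's transcripts. Gm20547 is among the identifiers in the tables, likewise with 0 counts in every library. In GENCODE M21, 100% of its exon bases are shared with C2 or Cfb. The deposited tables keep reads that lie in more than 1 gene apart as ambiguous. A count of 0 thus bears only on the unshared exon bases of Cfb, and under these gene models that of Gm20547 says nothing of its level. Which annotation the authors counted with is unknown here. The neighbour C2, the classical-pathway counterpart of factor B, shares 42.8% of its exon bases with Gm20547 and had 4 (ARPC4 ko), 3 (Nrf2-EGFP) and 3 (wt) counts.

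Against wt, the size rule called neither Cd55 nor Cd59a, the regulators among the 7 genes with enough counts to compare. Cd55 (ENSMUSG00000026399, chromosome 1, 130439027 to 130462744) had 132 counts in ARPC4 ko and 68 in Nrf2-EGFP, against 84 in wt. This was 5.43 CPM (4.54 to 6.44) in ARPC4 ko and 2.74 CPM (2.13 to 3.47) in Nrf2-EGFP, against 3.74 CPM (2.98 to 4.62) in wt. The ratio was 1.45 (1.097 to 1.93) for ARPC4 ko over wt and 0.733 (0.524 to 1.02) for Nrf2-EGFP over wt, and neither passed the size rule. Directly compared, Cd55 was 1.98-fold higher (1.47 to 2.70) in ARPC4 ko than in Nrf2-EGFP, with a log2 fold of 0.87.

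Cd59a (ENSMUSG00000032679, chromosome 2, 104095801 to 104115354), the inhibitor of the membrane attack complex, was close to the filter, with 32 counts in ARPC4 ko and 17 in Nrf2-EGFP, against 38 in wt. Its level was 1.32 CPM (0.900 to 1.86) in ARPC4 ko and 0.684 CPM (0.399 to 1.095) in Nrf2-EGFP, against 1.69 CPM (1.196 to 2.32) in wt. In ARPC4 ko over wt its ratio of 0.779 (0.471 to 1.28) had an interval that includes 1. In Nrf2-EGFP over wt it was 2.47-fold lower (1.36 to 4.67) without passing the size rule, since the added 0.5 CPM held its log2 fold to -0.89, and with a pseudocount of 0.1 CPM it passed at -1.19. Directly compared, Cd59a was 1.92-fold higher (1.04 to 3.69) in ARPC4 ko than in Nrf2-EGFP. All 5 compared genes of the 7 had a log2 fold above 0 in that comparison, as did 47.1% of all genes compared. None of the 5 passed the rule there, and the interval of C1ra included 1. Serping1 (ENSMUSG00000023224, chromosome 2, 84765387 to 84775444), which encodes C1 inhibitor, had 1 count in ARPC4 ko and 0 in Nrf2-EGFP, against 0 in wt, and no fold is given at or under the floor of 3 counts. No 65-base stretch of Serping1 is shared with another gene. The paralogues Cd55b and Cd59b had 0 counts in all 3 libraries.

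Levels of the genes were set against each other per kilobase of exon. In the library labelled ARPC4 ko, C3 stood at 54.3 CPM per kilobase (53.1 to 55.7), C1s1 at 3.30 (2.90 to 3.73), C1ra at 1.31 (1.06 to 1.60), Cd55 at 1.12 (0.936 to 1.33) and Cd59a at 0.727 (0.497 to 1.03). The intervals of C1ra and Cd55 overlapped there, as did those of Cd55 and Cd59a. In the library labelled Nrf2-EGFP the order was the same, with 27.5 CPM per kilobase (26.6 to 28.4) for C3, 2.26 (1.94 to 2.62) for C1s1, 1.12 (0.893 to 1.39) for C1ra, 0.564 (0.438 to 0.715) for Cd55 and 0.378 (0.220 to 0.605) for Cd59a, of which Cd55 and Cd59a overlapped. In wt the regulators Cd59a and Cd55 stood above the C1 proteases, while the regulator Serping1 had 0 counts. There C3 was at 4.16 CPM per kilobase (3.80 to 4.55), Cd59a at 0.933 (0.660 to 1.28), Cd55 at 0.770 (0.614 to 0.953), C1s1 at 0.128 (0.0585 to 0.243) and C1ra at 0.119 (0.0515 to 0.235), and the intervals of Cd59a and Cd55 overlapped, as did those of the proteases. By this measure C3 exceeded 93.1% of the compared genes with a known length in ARPC4 ko and 82.4% in Nrf2-EGFP, against 35.3% in wt.

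Some of these genes share sequence with paralogues. Of the 65-base stretches of C1ra, 45.4% occur in other genes' transcripts, mostly those of its paralogue C1rb, and 28.5% of those of C1s1 do, in part those of C1s2. C1rb had 0 counts in every library and C1s2 had 0 in ARPC4 ko and 0 in Nrf2-EGFP, against 1 in wt. With all counts of a gene divided by the length of its unshared stretches, C1ra was at 2.45 CPM per kilobase (1.98 to 3.00) in ARPC4 ko and 2.096 (1.67 to 2.60) in Nrf2-EGFP, against 0.223 (0.0964 to 0.440) in wt. Its interval then lay above that of Cd55 in ARPC4 ko, at 1.21 (1.02 to 1.44). The share for Cd55 was 7.16% and that for Cd59a 2.21%. The level per unshared length takes every counted read to lie in an unshared stretch, which was not tested, and it was added after the data were seen. On the opposite strand, C1s1 overlaps Gm16567 by 576 exon bases, and Gm16567 had 0 counts in every library.

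The wider complement system was examined with a list of 63 genes that includes the 7. Of these, 12 passed the filter of 1 CPM in at least 1 library, 19 had counts below it and 32 had 0 counts in all 3 libraries. All 3 chains of C1q, the lectin-pathway genes Masp1, Mbl1 and Mbl2, the terminal components C6, C7, C8a, C8b and C9, the soluble regulators Cfi and Vtn, and factor D (Cfd) were among those at 0. Of the C4 genes, C4a, annotated as a processed transcript, had 9 (ARPC4 ko), 17 (Nrf2-EGFP) and 11 (wt) counts and the protein-coding C4b had 2, 1 and 0. These copies share 23.4% (C4a) and 26.7% (C4b) of their stretches with each other. The receptor for the C3a fragment, C3ar1, had 0 counts in every library, and C5ar1 had 1 (ARPC4 ko), 0 (Nrf2-EGFP) and 0 (wt).

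Of the 56 genes of the list outside the 7, the 7 that passed the filter were Clu, Cr1l, Cfp, Susd4, Cd93, C1qbp and Calr. Among them the rule called 1 higher and 1 lower in ARPC4 ko over wt, where 4.70% and 2.06% of all genes compared were, and 1 was past it as higher and 0 as lower in Nrf2-EGFP over wt, where 3.57% and 2.05% were. The median log2 fold of these 7 genes was -0.05 and 0.07 in these comparisons, beside -0.01 and 0.00 over all genes compared. In the comparison of ARPC4 ko with Nrf2-EGFP 0 of the 7 passed, where 2.01% of all genes compared passed as higher and 0.961% as lower, so a count of 0 is near the background.

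The gene past the rule as higher was Clu, which encodes clusterin, a secreted chaperone that also inhibits the membrane attack complex. It had 2044 counts in ARPC4 ko and 1658 in Nrf2-EGFP, against 480 in wt, or 84.1 CPM in ARPC4 ko and 66.7 CPM in Nrf2-EGFP, against 21.3 CPM in wt. Its ratios were 3.94 (3.56 to 4.36) for ARPC4 ko over wt and 3.13 (2.82 to 3.47) for Nrf2-EGFP over wt, so Clu followed the order of C3 with a smaller difference. The gene past it as lower was Cr1l, which encodes Crry, the rodent membrane regulator that acts on C3 and C4 fragments. Cr1l had 688 counts in ARPC4 ko and 943 in Nrf2-EGFP, against 1322 in wt, or 28.3 CPM in ARPC4 ko and 38.0 CPM in Nrf2-EGFP, against 58.8 CPM in wt. It was 2.08-fold lower (1.89 to 2.28) in ARPC4 ko than in wt, at a log2 fold of -1.04, and 1.55-fold lower (1.42 to 1.69) in Nrf2-EGFP without passing. The order of Cr1l over the libraries was the reverse of that of C3, and with scaling by total counts Cr1l no longer passed in ARPC4 ko.

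The other 5 genes differed less. Cfp, which encodes properdin, the stabiliser of the alternative-pathway convertase, was at 4.65 CPM in ARPC4 ko and 3.18 CPM in Nrf2-EGFP, against 3.74 CPM in wt, with intervals of both ratios to wt that include 1. Susd4, a membrane inhibitor of complement, was at 3.41 and 2.62 CPM, against 3.56 CPM in wt, and Cd93, once proposed as a C1q receptor, was at 2.06 and 2.86 CPM, against 2.05 CPM in wt, again with intervals that include 1. C1qbp and Calr encode proteins that bind C1q but act mainly in mitochondria and in the endoplasmic reticulum. C1qbp had ratios of 0.816 in ARPC4 ko over wt and 1.06 in Nrf2-EGFP over wt, and Calr had 0.834 and 1.05.

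**Figure D3:**
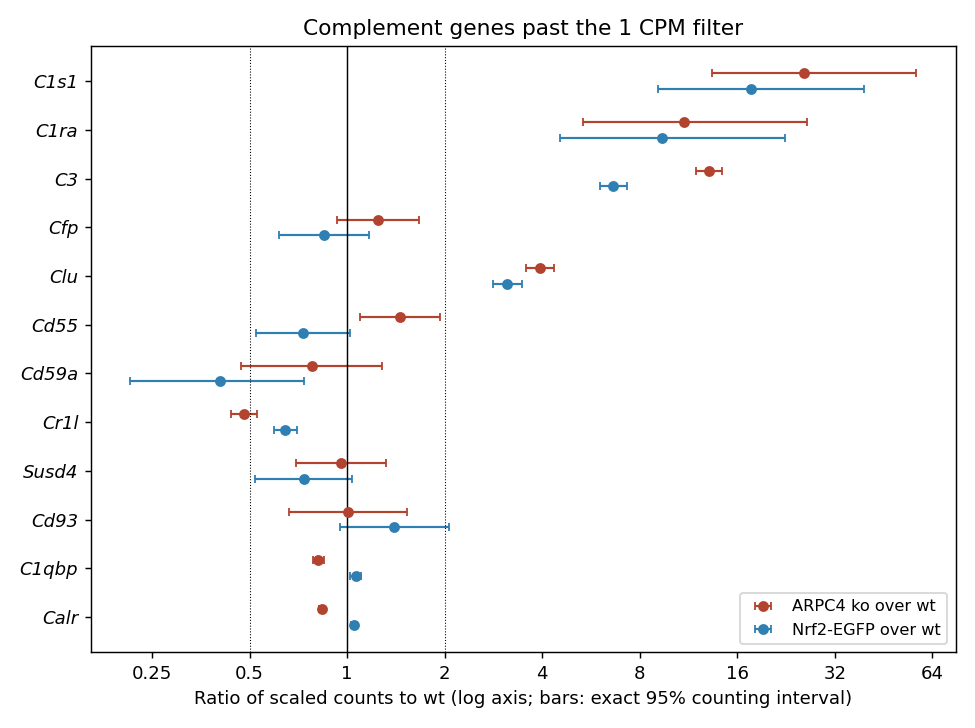
Ratio of scaled counts to wt (log axis) for the 12 complement genes past the filter, for the libraries labelled ARPC4 ko and Nrf2-EGFP, with exact 95% counting intervals and dotted lines at 0.5 and 2. C1s1, C1ra, C3 and Clu lie to the right of 2 for both libraries, with Clu at 3.94 and 3.13, and Cr1l is at 0.481 in ARPC4 ko and 0.646 in Nrf2-EGFP.

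Added over the 51 components and regulators of the list, without receptors, the level was 92.2 CPM per kilobase in ARPC4 ko and 57.7 in Nrf2-EGFP, against 21.4 in wt. Cfb entered this sum at 0 counts, though in GENCODE M21 79.5% of its exon bases, and 42.8% of those of C2, are shared with Gm20547. Reads of these genes classed as ambiguous are left out, so the sums and shares hold for the counted reads only. C3 made up 58.9% of that sum in ARPC4 ko and 47.7% in Nrf2-EGFP, against 19.5% in wt. Clu made up 26.5% in ARPC4 ko and 33.6% in Nrf2-EGFP, against 29.1% in wt. The membrane regulator Cr1l made up 2.97% in ARPC4 ko and 6.36% in Nrf2-EGFP, against 26.6% in wt. In ARPC4 ko and Nrf2-EGFP C3 was the largest of these parts. In wt Clu stood at 6.21 CPM per kilobase (5.67 to 6.79) and Cr1l at 5.68 (5.38 to 6.00), with intervals that overlap, and both were above C3.

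**Figure D4:**
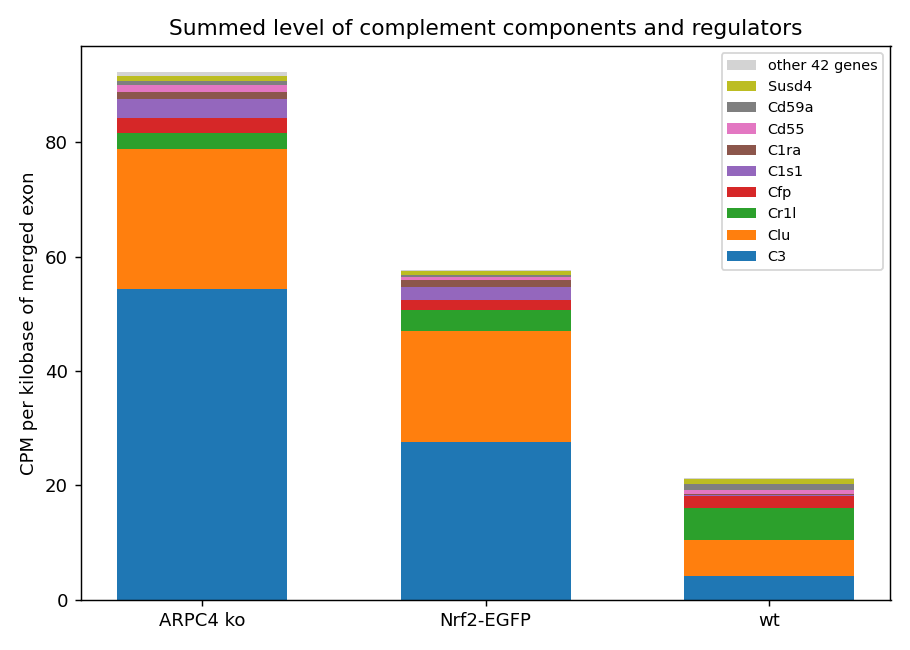
Summed level of 51 complement components and regulators in CPM per kilobase of merged exon (stacked bars) in the libraries labelled ARPC4 ko, Nrf2-EGFP and wt, with 9 genes drawn by name and the other 42 in grey. The sums are 92.2, 57.7 and 21.4, and the segment of C3 measures 54.3, 27.5 and 4.16. Reads classed as ambiguous are left out, which bears on Cfb and C2, whose exons are partly shared with Gm20547.

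Markers of other cell types were read beside these results. Of 16 macrophage and other immune markers, 2 (Cd68 and Cd14) passed the filter and 8, among them Adgre1, Lyz2 and Tyrobp, were at 0 in every library, and the list summed to 11.7 CPM in ARPC4 ko and 10.7 CPM in Nrf2-EGFP, against 7.60 CPM in wt. Of 12 fibroblast markers, 3 (Pdgfra, Vim and Fbln1) passed, Col1a2, Col3a1, Pdgfrb, Dcn, Lum and Thy1 were at 0 in every library, and the sum was 54.8 CPM in ARPC4 ko and 42.4 CPM in Nrf2-EGFP, against 39.0 CPM in wt, mostly from Fbln1. Vim, which encodes the intermediate filament vimentin, had 68 counts in ARPC4 ko and 3 in Nrf2-EGFP, against 12 in wt, and it was past the size rule as higher in ARPC4 ko, with log2 folds of 1.67 over wt and 2.41 over Nrf2-EGFP. Cd14 was past it as higher in both comparisons with wt, with log2 folds of 1.05 in ARPC4 ko and 1.19 in Nrf2-EGFP. Cd68 was at 6.17 CPM in ARPC4 ko and 4.71 CPM in Nrf2-EGFP, against 5.51 CPM in wt. Under the filter, Csf1r had 22 counts in ARPC4 ko and 22 in Nrf2-EGFP, against 4 in wt. Col1a1, also under it, had 11 and 16 counts, against 2 in wt. Of 8 endothelial markers, 3 (Pecam1, Eng and Flt1) passed and Emcn was at 0, with a sum of 54.2 CPM in ARPC4 ko and 63.2 CPM in Nrf2-EGFP, against 27.7 CPM in wt, of which Flt1 gave 51.8, 59.8 and 24.7 CPM. Of 8 melanocyte markers, 1 (Mitf) passed and Tyr, Dct, Sox10 and Tyrp1 were at 0, with a sum of 5.43 CPM in ARPC4 ko and 2.21 CPM in Nrf2-EGFP, against 3.47 CPM in wt. Mitf was past the size rule as higher in ARPC4 ko over Nrf2-EGFP, with a log2 fold of 1.26, and in neither comparison with wt. Flt1 was past the size rule as higher in both comparisons with wt, with log2 folds of 1.05 in ARPC4 ko and 1.26 in Nrf2-EGFP. The part of cells with Vim, Cd14, Csf1r, Col1a1, Flt1 or Fbln1 in the levels of C3 was not tested.

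Cytokines and receptors known to raise complement synthesis were taken as a list of 23 genes, of which 17 passed the filter. In ARPC4 ko over wt the rule called 3 of them higher and 0 lower, with a median log2 fold of 0.43, and in Nrf2-EGFP over wt 1 passed as higher and 0 as lower, with a median of 0.28. Over all genes compared, the rule called 4.70% higher and 2.06% lower in ARPC4 ko over wt and 3.57% higher and 2.05% lower in Nrf2-EGFP over wt, with medians of -0.01 and 0.00. Tnf, which encodes tumour necrosis factor, was at 52.8 CPM in ARPC4 ko and 33.4 CPM in Nrf2-EGFP, against 13.6 CPM in wt, with ratios of 3.88 (3.42 to 4.41) and 2.46 (2.15 to 2.81). Il1a, the epithelial form of interleukin 1, was at 494.4 CPM in ARPC4 ko and 431.7 CPM in Nrf2-EGFP, against 243.8 CPM in wt, with ratios of 2.03 (1.96 to 2.09) and 1.77 (1.71 to 1.83), and the second did not pass. Tlr2, a receptor for bacterial lipoproteins, was at 12.7 CPM in ARPC4 ko and 5.84 CPM in Nrf2-EGFP, against 5.56 CPM in wt, and it was 2.18-fold higher (1.78 to 2.67) in ARPC4 ko than in Nrf2-EGFP, past the rule. In that comparison the rule called 1 of the 17 genes higher and 0 lower, where 2.01% and 0.961% of all genes compared were. Tlr4 was 2.11-fold lower (1.54 to 2.92) in ARPC4 ko than in wt, at 2.51 CPM against 5.29 CPM. It did not pass the rule, since the added 0.5 CPM held its log2 fold to -0.94. Il6, Osm, Ifng, Ifnb1 and Il17a had 0 counts in every library.

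Of 14 transcription factors that bind the searched motifs, all passed the filter. In ARPC4 ko over wt, Irf1 (2.03-fold, 1.89 to 2.19) and Irf9 (2.20-fold, 1.86 to 2.61), both of the interferon response, were past the rule as higher, and Cebpa was past it as lower, by 2.59-fold (2.004 to 3.37). In Nrf2-EGFP over wt 0 of 14 passed in either direction. The shares over all genes compared were 4.70% higher and 2.06% lower in ARPC4 ko over wt, and 3.57% and 2.05% in Nrf2-EGFP over wt, so with 14 genes a count of 0 is near the background. Directly compared, Irf9 was 2.101-fold higher (1.79 to 2.47) in ARPC4 ko than in Nrf2-EGFP, past the rule. There 1 of 14 passed as higher and 0 as lower, beside 2.01% and 0.961% of all genes compared. Cebpb and Cebpd, chosen after their values were seen because of the C/EBP letters before C3 and C1s1, were not higher than in wt. Cebpb was at 26.1 CPM in ARPC4 ko and 19.6 CPM in Nrf2-EGFP, against 31.7 CPM in wt, and Cebpd at 1.77 CPM in both, against 2.45 CPM in wt. The part of C/EBP factors in the levels of C3 and C1s1 was not tested. Among 9 proteases that C1 inhibitor blocks, Plat, the tissue plasminogen activator, was the gene besides C1s1 and C1ra that passed the filter, with 2.14 CPM in ARPC4 ko and 1.49 CPM in Nrf2-EGFP, against 1.02 CPM in wt, and it did not pass the size rule. Its ratio in ARPC4 ko over wt was 2.09 (1.26 to 3.58), and the added 0.5 CPM held its log2 fold to 0.79.

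The genes whose pattern over the 3 libraries was most like that of C3 were sought among 9103 named genes with at least 10 CPM in a library. Likeness was the Euclidean distance between log2 of (CPM + 0.5) after centring each gene on its mean. Nearest to C3 was C1s1, at a distance of 0.35, followed by Ntn1, which encodes netrin 1, at 0.39 and Ccl2, a monocyte chemoattractant, at 0.63. Nearest to C1s1 was Ntn1 at 0.15, followed by C3 and by Adamts8, a secreted metalloprotease, at 0.50. Ntn1 was at 63.3 CPM in ARPC4 ko and 42.3 CPM in Nrf2-EGFP, against 4.09 CPM in wt. Ccl2 was at 101.9 CPM in ARPC4 ko and 28.2 CPM in Nrf2-EGFP, against 4.58 CPM in wt. In wt C1s1 had 9 counts, and its 0.400 CPM there is under the added 0.5 CPM, so its distances depend on that pseudocount. With 0.1 CPM its log2 folds over wt were 4.38 in ARPC4 ko and 3.84 in Nrf2-EGFP, against 3.70 and 2.72 for C3. The distances were not recomputed with it. C1s1 reached 10 CPM only in ARPC4 ko. A distance over 3 libraries is a description only, and none was sought for Cfb or Serping1, which had no counts or 1.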

How the data were processed

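Total RNA was extracted with TRIzol and made into strand-specific mRNA libraries that were read for 65 bases from a single end, per the labels' protocols. The submitters' processing notes name TopHat2 2.1.0, Bowtie 1.1, HTSeq and the mm10 build. Neither names a strand setting or an annotation release. The authors deposited raw counts of reads per gene, in 1 table per library. Rows that name no gene (not unique, ambiguous, no feature) held 8.22% (ARPC4 ko), 8.48% (Nrf2-EGFP) and 9.08% (wt) of entries and were left out of library sizes.

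Symbols, coordinates and exon lengths came from GENCODE M21 on GRCm38, and 40254 identifiers matched. Counts were scaled with TMM factors (1.06, 0.966 and 0.981) of edgeR 4.0.16 in R 4.3.3, and a gene was compared if it reached 1 CPM in any library. Levels have exact Poisson intervals and ratios exact Clopper-Pearson intervals conditional on the sum, computed with scipy 1.17.1. No molecular identifiers are described, so reads may be copies of 1 molecule, and intervals and floors cover counting error only. The comparison step was tested on simulated counts drawn from these libraries' means and scaled sizes with counting error only. That check therefore says nothing of differences between cultures or of copied reads. Alternatives were 2 other scalings (total counts and the size factors of DESeq2 1.42.0), 2 other pseudocounts, 2 other filters and 2 other fold thresholds.

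The 7 genes and all lists were chosen with earlier results of these data known. The text names all 7 genes, listed complement genes past the filter, list members past the size rule, and the 3 nearest genes by pattern. Klkb1, on the list of proteases blocked by C1 inhibitor, was not analysed here.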

Additional observations from a re-analysis of the deposited data

Results flagged for a closer look

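Reads that the deposited tables class as ambiguous, a class for reads that lie in more than 1 gene, were not part of any comparison above and were higher on chromosome 17 in the ARPC4 ko and Nrf2-EGFP libraries than in wt. Chromosome 17 carries C3, Cfb and C2, and C3 itself shares no exon with another gene on its strand. Ambiguous reads there numbered 12910 in ARPC4 ko and 12131 in Nrf2-EGFP, against 9493 in wt, or 531.1 per 1000000 scaled gene counts in ARPC4 ko and 488.2 in Nrf2-EGFP, against 422.2 in wt. The ratio on chromosome 17 was 1.26 (1.23 to 1.29) for ARPC4 ko over wt. On the other chromosomes with at least 1000 such reads in each library, it lay between 0.745 and 1.19 with a median of 0.873, and none was above chromosome 17. For Nrf2-EGFP over wt the ratio on chromosome 17 was 1.16, and 2 other chromosomes were above it. The tables do not say which genes these reads lie in, and whether reads of Cfb are among them was not tested.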

How the results depend on the processing

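C3, C1s1 and C1ra passed the size rule as higher in both comparisons with wt under every alternative in which they were compared, since C1ra is under the filter of 10 CPM. The size factors of DESeq2 kept each gene recomputed under them on its side of the rule. Scaling by total counts shifted the median of all genes to 0.09 (ARPC4 ko over wt) and 0.11 (ARPC4 ko over Nrf2-EGFP) on the log2 scale, against -0.01 and -0.02. With it, 0 listed complement genes were lower in ARPC4 ko than in wt, and C3 was the 1 member and the 1 listed gene higher in ARPC4 ko than in Nrf2-EGFP, where the list's median was 0.45.

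Medians below are log2 folds in the order ARPC4 ko over wt, Nrf2-EGFP over wt and ARPC4 ko over Nrf2-EGFP, and counts over all genes give higher then lower. With a pseudocount of 0.1 CPM the medians of the compared members were 3.14, 2.72 and 0.85, and 1 member, which is also the 1 listed gene, was lower in Nrf2-EGFP than in wt. With 2 CPM they were 1.33, 1.18 and 0.44, and all genes gave 311 and 143, 258 and 104, and 80 and 67. Without a filter the members' medians with wt were 1.43 and 1.08, and the list's median between ARPC4 ko and Nrf2-EGFP was 0.11. With 10 CPM the members' medians were 3.63, 2.89 and 0.75, the list's were 0.85, 0.85 and -0.0009, the last with its sign turned, and all genes gave 253 and 121, 242 and 92, and 52 and 62. With a log2 threshold of 0.5 all genes gave 1542 and 991, 1239 and 943, and 861 and 550. There 1 member and 2 listed genes were lower in Nrf2-EGFP than in wt, and 4 members and 4 listed genes were higher in ARPC4 ko than in Nrf2-EGFP. With a threshold of 2 all genes gave 89 and 40, 58 and 37, and 26 and 8, and 0 listed genes were lower in ARPC4 ko than in wt.

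No paired analysis was possible because each label has 1 library, and no library was left out in turn for the same reason.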
